A study of Mus musculus with 11 samples.

Results

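Ribosome biogenesis and RNA polymerase I are represented here by 51 mouse genes, listed by symbol, of which 50 have a row among the 49585 gene rows of the expression table. The remaining gene, Utp4, has its row under the older symbol Cirh1a, according to RefSeq synonyms, so its values are given apart and it enters no count of expression values. The RNA came from C57BL/6 mouse embryos fertilised by injecting either a round spermatid, a haploid male germ cell that has not yet formed a sperm head (ROSI, round spermatid injection), or a sperm (ICSI, intracytoplasmic sperm injection). Embryos were collected as zygotes, meaning the 1-cell stage, or at the 2-cell stage, which gave 11 libraries, 2 from ROSI zygotes, 3 from zygotes after ICSI, and 3 from 2-cell embryos after each injection. ROSI embryos alone were activated in calcium-free CZB medium with 5 mM strontium chloride for 1 to 2 h, and all embryos were otherwise kept in KSOM medium, so the paternal cell and the activation cannot be told apart. Each library was built with a stranded SMART-seq kit from 1 ng total RNA. The labels give neither the collection hour nor the number of embryos behind a library.

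Ribosomes are assembled in the nucleolus around ribosomal RNA that RNA polymerase I transcribes as 1 long precursor. Small nucleolar ribonucleoproteins (snoRNPs) guide chemical marks onto that precursor, the small subunit processome folds and cuts its first part, and a separate set of GTPases, helicases and scaffold proteins builds the large subunit. In the mouse zygote the pronuclei hold compact nucleolar precursor bodies with almost no ribosomal RNA synthesis, and working nucleoli form only after the embryonic genome is switched on around the 2-cell stage. Messenger RNA in the zygote is largely inherited from the oocyte, and much of it is degraded while embryonic transcription begins.

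Promoter sequences are shown first because the largest changes described below are between stages, and the members shown differ in their stage change while sharing a short motif. In the RefSeq promoter table (GRCm38.p6, 250 bases before to 50 bases after a transcription start), 44 of the 51 members had an entry. The E-box CACGTG, the core letters bound by the Myc and USF families, was searched on both strands (it is its own reverse complement) and was in at least 1 promoter of 9 members (20.5%), against 8.09% of 27025 genes in the table. CCGGAAG, an ETS-family core, was in 17 members (38.6%), against 9.93% of genes. GCATGCG was in 3 members (6.82% against 4.01%), CCAAT in 19 (43.2% against 41.1%) and TATAAA in 2 (4.55% against 15.7%). A motif match is a description of the letters and not a bound site. The 9 members with CACGTG were Imp4, Ltv1, Mybbp1a, Nop2, Pes1, Utp18, Utp20, Utp4 and Wdr43. Among members with an entry, 2 of the 24 that rose to the 2-cell stage after ICSI held it, and so did 5 of the 13 that fell. The 250 bases before the start of Nop2 (chr6:125131633-125131882, plus strand), a steeply rising member, hold both motifs, shown in capitals in their order, CACGTG and then CCGGAAG. For Mybbp1a, which also rose, and Utp20, which fell after ICSI, only the 20 bases around CACGTG are given, at chr11:72441355-72441374 (plus strand) and chr10:88826770-88826789 (minus strand). In these members the first base of the motif lies 41 and 38 bases after the RefSeq start. A stretch of bases after that start was found in a GENCODE M21 transcript of the gene for Utp20, but not for Nop2 or Mybbp1a.
Nop2: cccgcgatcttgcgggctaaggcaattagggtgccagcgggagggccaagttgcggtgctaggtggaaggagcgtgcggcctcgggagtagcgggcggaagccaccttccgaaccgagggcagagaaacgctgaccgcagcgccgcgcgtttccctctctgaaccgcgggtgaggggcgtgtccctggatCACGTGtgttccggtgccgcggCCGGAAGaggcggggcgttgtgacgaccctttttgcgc
Mybbp1a: gtcttctgagccCACGTGtt
Utp20: cggcactaactaCACGTGag

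Values are TPM, a transcript abundance that is set per length of transcript and sums to the same total in every library. Differences are given as differences of log2(TPM + 1) with the standard error (SE) of a limma model over all 4 groups, and a gene passed where the p-value adjusted over all 21938 tested genes was under 0.05. All 50 members with a row were among the tested genes, which had at least 1 TPM in at least 2 libraries. One of them, Nop16, met this limit only through the 2-cell libraries, where it is high, since 1 zygote library alone reached 1 TPM, so its stage change is given as a description. The recovered depth was 30.4 to 85.9 M reads (M, 1e6) in zygotes and 8.48 to 32.9 M reads in 2-cell embryos. The share of TPM on protein-coding genes was 65.9% to 71.5% in zygotes and 44.6% to 51.4% in 2-cell embryos, so a stage change is a change of a gene's share of the measured RNA. In these bulk samples, fewer cells and less RNA per cell cannot be told apart. The labels do not say whether the replicates were separate cultures, so p-values measure the spread between these libraries. ROSI zygote replicate 1 and ICSI zygote replicate 1 held less small nuclear and nucleolar RNA (0.611% and 0.572% of TPM) than the other 9 libraries. Markers of oocyte and embryo were all above 0 in every group. Of 12 cumulus cell markers, 1 (Amh) was at 0 in all zygotes. Their summed level was 12.1 to 16.5 TPM in zygotes and 32.1 to 54.7 TPM in 2-cell embryos. Most of the sum was Cyp19a1 in zygotes (8.94 to 13.0 TPM) and Amhr2 in 2-cell embryos (25.5 to 48.3 TPM). These 2 markers went opposite ways, as Cyp19a1 was at 0.287 to 1.99 TPM in 2-cell embryos and Amhr2 at 0 to 0.383 TPM in zygotes.

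In zygotes the members covered a wide range of levels that narrowed by the 2-cell stage. The median member stood at 40.2 to 45.1 TPM in the 5 zygote libraries and at 88.0 to 109 TPM in the 6 2-cell libraries, while the median of all tested genes was 2.62 to 2.99 and 3.77 to 4.58 TPM. The standard deviation of log2(TPM + 1) across the 50 members was 2.09 to 2.18 in zygote libraries and 1.25 to 1.33 in 2-cell libraries, without overlap. Across all tested genes it was 2.34 to 2.41 and 2.06 to 2.12. Between 9 and 12 members lay under 10 TPM in a zygote library, but only 1, Wdr12, did in each 2-cell library. At the top, Npm1, which encodes the nucleolar chaperone nucleophosmin, made up 22.1% to 25.1% of the members' summed TPM in zygotes and 10.7% to 12.5% in 2-cell embryos. The summed TPM itself overlapped between stages, at 5287 to 6301 and 5340 to 7061. The narrowing came from rises among members that were low in zygotes and falls among many that were high.

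**Figure D1:**
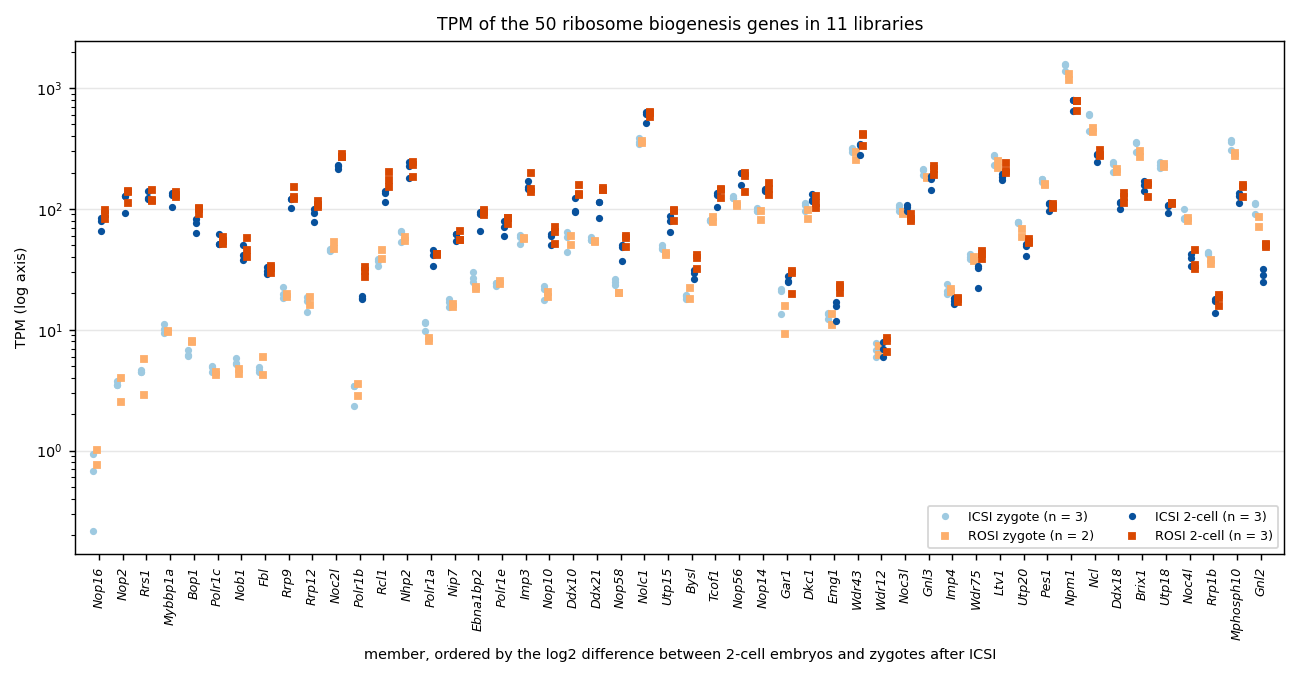
TPM (vertical log axis) of each of the 50 members in the 11 libraries, with members ordered by their stage change after ICSI; light points are zygotes, dark points are 2-cell embryos, circles are ICSI and squares are ROSI. At the left Nop16, Nop2 and Rrs1 lie at or under 5.69 TPM in every zygote library and at or above 66.1 TPM in every 2-cell library, and at the right Gnl2 and Mphosph10 lie lower in 2-cell embryos.

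After ICSI, 29 members rose from zygote to 2-cell embryo and 15 fell, out of 50. Among all tested genes 33.0% rose and 35.0% fell (68.1% in all), and the medians were 0.63 for members and 0.0036 for all genes. After ROSI, 33 members rose and 10 fell, against 35.6% and 32.3% of all genes (67.9% in all), with medians of 0.97 and 0.19. The libraries of the 2 stages did not overlap for 31 higher and 15 lower members after ICSI, against 34.9% and 37.3% of all tested genes, and for 34 higher and 13 lower members after ROSI, against 40.2% and 35.9%. The 29 members that rose after ICSI also rose after ROSI, and the 10 that fell after ROSI also fell after ICSI. Thus 39 of 50 passed in the same direction after both. The share of all tested genes that did so was not counted, so this is a description. Without Nop16 the counts were 28 and 15 of 49 after ICSI and 32 and 10 after ROSI. The split of calls depended on the scaling. With quantile normalization it was 34 higher and 9 lower after ICSI, where 30.5% and 37.7% of all genes passed, and 36 and 6 after ROSI (30.3% and 37.1% of all genes). With protein-coding genes alone rescaled to their own total it was 36 and 10 after ICSI, against 42.4% and 32.3% of the genes then tested, and 39 and 7 after ROSI (44.6% and 31.4%).

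**Figure D2:**
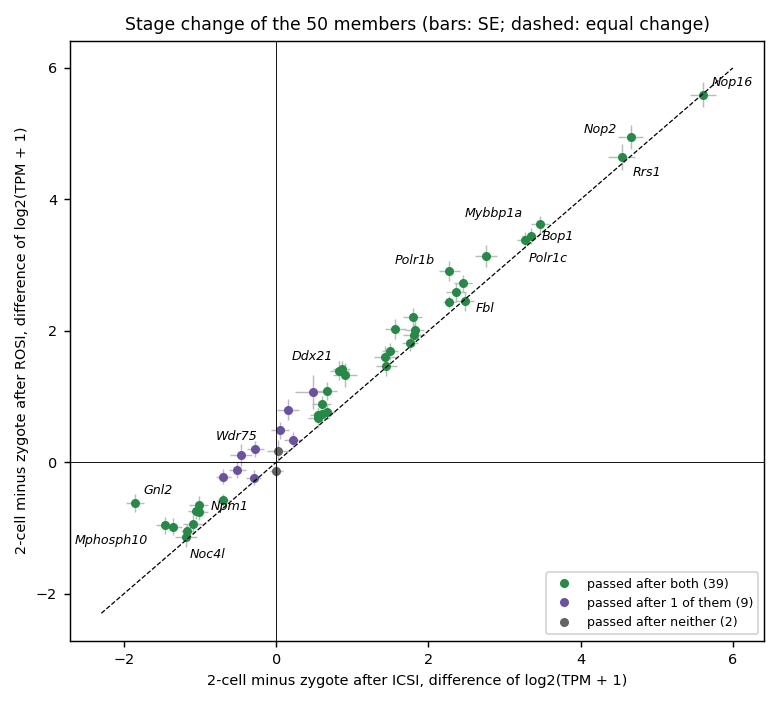
Difference of log2(TPM + 1) between 2-cell embryos and zygotes after ICSI (horizontal) and after ROSI (vertical) for each of the 50 members, with SE bars and a dashed line of equal change; colours show whether a member had an adjusted p under 0.05 after both (39 members), after 1 of them (9) or after neither (2). Nop16, Nop2 and Rrs1 lie at the upper right, and Gnl2 lies above the line at the lower left.

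All 4 RNA polymerase I subunits in the list rose after both fertilisations. Polr1a encodes the largest catalytic subunit, and its TPM was 9.71, 11.3 and 11.7 in ICSI zygotes, 8.14 and 8.51 in ROSI zygotes, 33.5, 45.9 and 41.8 in ICSI 2-cell embryos and 41.5, 42.1 and 42.7 in ROSI 2-cell embryos. The stages did not overlap, and the rise was 1.79 (SE 0.12) after ICSI and 2.21 (SE 0.14) after ROSI. Polr1b encodes the other large catalytic subunit, and it went from 2.35 to 3.56 TPM over the 5 zygote libraries to 18.1 to 33.4 TPM over the 2-cell libraries. Its rise was 2.27 (SE 0.14) after ICSI and 2.91 (SE 0.16) after ROSI. Polr1c, a subunit shared with RNA polymerase III, rose most, from 4.24 to 4.99 TPM in zygotes to 51.5 to 61.7 TPM in 2-cell embryos (3.26, SE 0.11, and 3.38, SE 0.12). Polr1e, a peripheral subunit, rose from 23.1 to 25.5 TPM to 59.3 to 84.7 TPM. Within each library Polr1b stood at 0.201 to 0.418 of the level of Polr1a in zygotes and at 0.395 to 0.792 in 2-cell embryos, with a small overlap between stages.

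The 3 proteins of box C/D snoRNPs, which place methyl groups on ribosomal RNA, also rose after both, from very different starting levels. Fbl, the methyltransferase fibrillarin, was listed at 4.93, 4.60 and 4.52 TPM in ICSI zygotes, 4.19 and 5.98 in ROSI zygotes, 28.8, 30.4 and 32.8 in ICSI 2-cell embryos and 29.2, 32.4 and 33.9 in ROSI 2-cell embryos. The stages were far apart and ROSI and ICSI overlapped, with rises of 2.48 (SE 0.13) after ICSI and 2.45 (SE 0.14) after ROSI. Nop56 and Nop58, the scaffold pair of the same particle, rose by 0.55 and 0.83 after ICSI and by 0.67 and 1.39 after ROSI. Per length, Fbl stood at 0.0358 to 0.0545 of the level of Nop56 in zygotes and at 0.152 to 0.211 in 2-cell embryos. Of the 4 box H/ACA snoRNP proteins, which carry out pseudouridylation, Nhp2 and Nop10 rose after both. Nhp2 went from 53.3 to 65.1 TPM to 179 to 246 TPM, and Nop10 from 17.5 to 23.2 TPM to 50.7 to 70.2 TPM. Dkc1, the pseudouridine synthase dyskerin, and Gar1 passed after ROSI (0.34, SE 0.12, and 1.06, SE 0.26) and had differences of 0.22 and 0.48 after ICSI that did not pass. Without ROSI zygote replicate 1 neither passed after ROSI, with limma adjusted p = 0.246 for Dkc1 and 0.0568 for Gar1, and Dkc1 also did not pass without ROSI 2-cell replicate 2 (0.0575) or replicate 3 (0.0974), or with median-ratio scaling (0.0657).

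**Figure D3:**
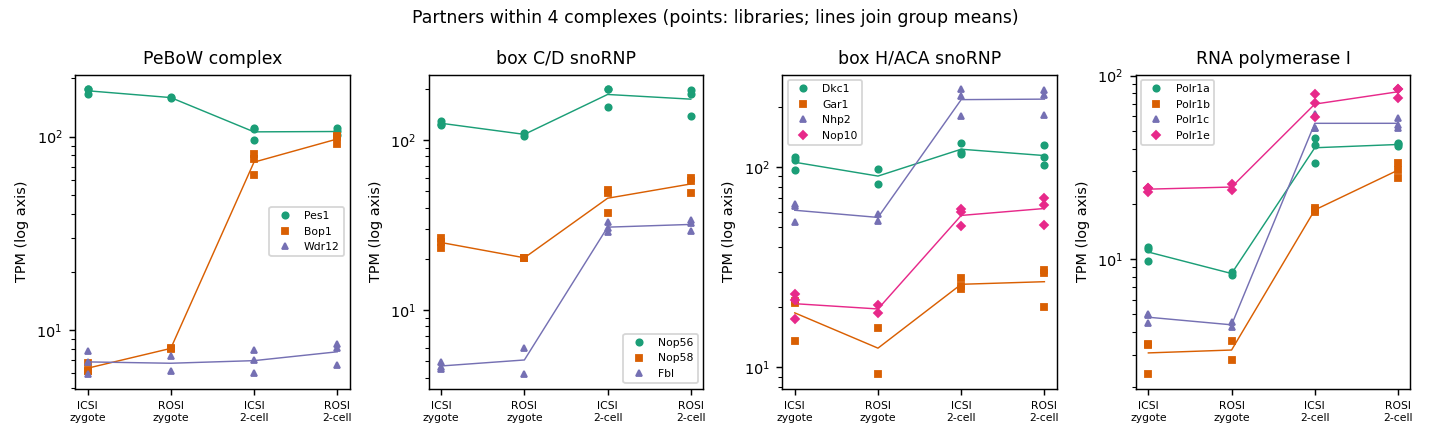
TPM (log axes) of members that work in the same complex, by group, with 1 point per library and lines through group means. Bop1 climbs from 6.11 to 8.08 TPM in zygotes to 63.3 to 101 TPM in 2-cell embryos while Pes1 declines and Wdr12 stays between 5.91 and 8.47 TPM, and all 4 RNA polymerase I subunits climb.

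Several members carry genes for snoRNAs in their introns, which are spliced out and trimmed. Of 19 annotated snoRNA genes lying inside 6 members on the same strand, 12 had a value above 0 in any library. After ICSI 4 of the 12 passed, all higher, and 8 did not, where 33.0% of all tested genes were higher. After ROSI 7 passed, all higher, and 5 did not, where 35.6% of all tested genes were higher. Of the 12, 2 met the limit on low values only through the 2-cell libraries. Snord110, Snord70 and Snord11 passed after ROSI alone. They were at 0, 2.29 and 0 TPM in ROSI zygote replicate 1 and 10.5, 5.49 and 6.91 TPM in replicate 2. That replicate 1 held 0.611% of TPM as small nuclear and nucleolar RNA, and replicate 2 held 2.58%. The 3 inside Wdr43, a gene of the processome, were chosen with their values in view and are given as a description. Snord53 was listed at 0, 0 and 2.89 TPM in ICSI zygotes and at 0 in both ROSI zygotes, and at 47.4, 51.3 and 47.9 TPM in ICSI 2-cell embryos and 32.1, 37.7 and 59.1 TPM in ROSI 2-cell embryos. Snord92 was at 0 to 4.25 TPM in zygotes and 20.7 to 33.4 TPM in 2-cell embryos, and Gm22858 at 0 to 7.72 TPM and 17.4 to 54.3 TPM. The 2-cell values lay above the zygote values in each of these 3, which rest on few reads, with 0 to 13 in a zygote library and 5 to 51 in a 2-cell library. Snord53 reached 1 TPM in 1 zygote library alone, so it was tested only through the 2-cell libraries. Their host Wdr43 was at 296, 311 and 318 TPM in ICSI zygotes and 281, 336 and 343 TPM in ICSI 2-cell embryos, a difference of 0.05 (SE 0.11) that did not pass. After ROSI, Wdr43 rose by 0.49 (SE 0.13), and this did not pass without ROSI zygote replicate 2 (limma adjusted p = 0.0651). The difference between the snoRNAs and their host was not tested. Snord19, in Gnl3, passed after both, at 0 to 7.13 TPM in zygotes and 6.95 to 45.4 TPM in 2-cell embryos, with overlap.

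**Figure D4:**
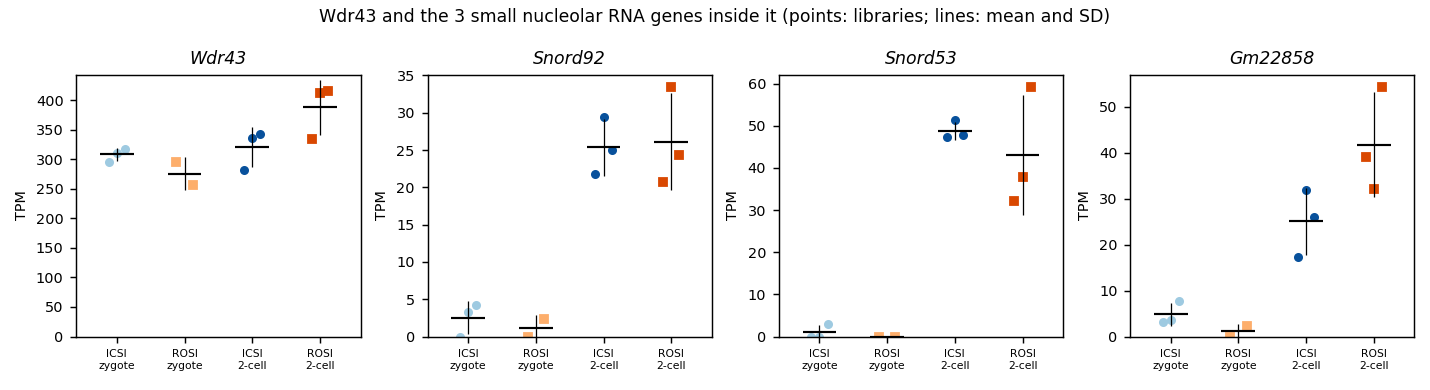
TPM by group of Wdr43 and the 3 snoRNA genes inside it, with 1 point per library and a bar for mean and SD (n = 3, and n = 2 for ROSI zygotes). Every 2-cell value of Snord92, Snord53 and Gm22858 lies above every zygote value, while Wdr43 overlaps between stages after ICSI.

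Of the 18 genes of the small subunit processome and of late small subunit maturation, 9 were higher and 7 lower after ICSI. Among all tested genes 33.0% were higher and 35.0% lower, so the share of the 18 that fell (38.9%) lay near that of all genes. After ROSI 11 were higher and 3 lower (61.1% and 16.7%), against 35.6% and 32.3% of all tested genes. Nob1, the endonuclease that makes the last cut of small subunit RNA, rose furthest, from 4.28 to 5.87 TPM in zygotes to 37.6 to 57.1 TPM in 2-cell embryos (2.76, SE 0.14, and 3.14, SE 0.16). Rrp9, which binds the processome's guide snoRNA, rose by 2.46 (SE 0.12) and 2.72 (SE 0.13), and Rrp12, a pre-ribosome export factor, by 2.36 and 2.59. Rcl1, Imp3, Nop14, Utp15, Bysl and Ddx10 also rose after both. On the other side, Mphosph10, which forms a complex with Imp3 and Imp4, was at 309, 375 and 357 TPM in ICSI zygotes, 291 and 273 in ROSI zygotes, 112, 128 and 135 in ICSI 2-cell embryos and 126, 158 and 151 in ROSI 2-cell embryos. It fell by 1.46 (SE 0.11) after ICSI and by 0.96 (SE 0.13) after ROSI, with no overlap between stages, while its partner Imp3 rose by 1.44 (SE 0.14) and 1.47 (SE 0.15). Noc4l and Utp18 fell by 1.18 and 1.17 after ICSI and by 1.13 and 1.04 after ROSI. Nop14, the partner of Noc4l and Emg1 in the processome, went the other way (0.54 and 0.72). Utp20, Ltv1, Imp4 and Wdr75 passed after ICSI alone, with differences of -0.70, -0.51, -0.30 and -0.47, and their ROSI values were -0.22, -0.12, -0.23 and 0.11. None of these 4 calls held with protein-coding genes rescaled, where the ICSI differences were -0.17, 0.02, 0.22 and 0.05, the last 3 with the opposite sign. Ltv1 also changed sign with quantile normalization (0.09), where Imp4 (-0.14) and Wdr75 (-0.18) did not pass, and neither passed without the most abundant row (-0.18 and -0.35). Imp4 did not pass with median-ratio scaling (limma adjusted p = 0.0505). It also did not pass without ICSI zygote replicate 1 (limma adjusted p = 0.0787) or without ICSI 2-cell replicate 1 or replicate 3. The row Cirh1a, for Utp4, was at 68.0 to 85.8 TPM in zygotes and 41.5 to 63.2 TPM in 2-cell embryos.

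Large subunit assembly held the steepest rises of the list and, after ICSI, the deepest fall, with 7 of 15 higher and 6 lower after ICSI, and 7 higher and 5 lower after ROSI. These shares were 46.7% and 40.0% after ICSI, against 33.0% and 35.0% of all tested genes. After ROSI they were 46.7% and 33.3%, against 35.6% and 32.3%, so the share that fell lay near that of all genes. The 7 higher include Nop16 after both fertilisations. Nop16 was tested only through the 2-cell libraries, so the shares that rose are given as a description. After ROSI the deepest falls were those of Noc4l and Utp18 in the processome. Nop16, a nucleolar protein of early large subunit particles, was at 0.945, 0.216 and 0.685 TPM in ICSI zygotes, 0.755 and 1.02 in ROSI zygotes, 66.1, 79.6 and 84.7 in ICSI 2-cell embryos and 82.1, 90.9 and 97.6 in ROSI 2-cell embryos. The lowest of these rested on 10 recovered reads. The differences were 5.61 (SE 0.17) and 5.59 (SE 0.19), on a scale that understates low values. Nop2, a large subunit RNA methyltransferase whose promoter is printed above, was at 2.55 to 3.99 TPM in zygotes and 91.6 to 140 TPM in 2-cell embryos (4.66, SE 0.17, and 4.95, SE 0.19). Rrs1, which helps load the smallest ribosomal RNA onto the particle, went from 2.87 to 5.69 TPM to 115 to 144 TPM (4.54, SE 0.18, and 4.64, SE 0.20). These 3 genes thus went from the bottom of the list to the middle of it. Noc2l, Ebna1bp2 and Nip7 rose after both by 1.56 to 2.44. Gnl2, a GTPase needed for release of the particle from the nucleus, fell by 1.86 (SE 0.12) after ICSI and by 0.62 (SE 0.14) after ROSI. With protein-coding genes rescaled its ROSI difference was -0.15 and did not pass (limma adjusted p = 0.280). Rrp1b, Brix1, Ddx18 and Pes1 also fell after both, by 0.58 to 1.35. With quantile normalization Pes1 passed after neither (-0.14 and -0.10) and Ddx18 did not pass after ROSI (-0.20), and with protein-coding genes rescaled Pes1 did not pass after ROSI (-0.10). Gnl3, the GTPase nucleostemin, was near the threshold after ICSI (-0.28, SE 0.11, limma adjusted p = 0.0477) and passed under 3 of 11 omissions of 1 library. It changed sign and passed as higher with quantile normalization (0.30) and with protein-coding genes rescaled (0.26). It did not pass without either ROSI zygote, ICSI zygote replicate 2 or 3, ROSI 2-cell replicate 2 or 3, or ICSI 2-cell replicate 1 or 2, with a highest adjusted p of 0.174 without ICSI 2-cell replicate 1. Noc3l and Wdr12 passed after neither.

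Pes1, Bop1 and Wdr12 form 1 complex, called PeBoW, in large subunit processing, and their messages did not move together. Pes1 was at 166, 176 and 177 TPM in ICSI zygotes and 96.7, 111 and 110 TPM in ICSI 2-cell embryos. Bop1 was at 6.78, 6.17 and 6.11 TPM and 63.3, 81.8 and 76.4 TPM in the same groups, a rise of 3.34 (SE 0.11). Wdr12 was at 5.91, 7.77 and 6.85 TPM and 6.01, 6.97 and 7.87 TPM, a difference of 0.02 (SE 0.15). In ROSI embryos Bop1 went from 8.08 and 7.99 TPM to 99.7, 91.3 and 101 TPM. Within libraries Bop1 stood at 0.0345 to 0.0513 of the level of Pes1 in zygotes and at 0.655 to 0.978 in 2-cell embryos, and Wdr12 at 0.0357 to 0.0454 and at 0.0598 to 0.0796.

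The nucleolar organizers split by level. Npm1 was at 1379, 1553 and 1578 TPM in ICSI zygotes, 1318 and 1167 in ROSI zygotes, 651, 791 and 802 in ICSI 2-cell embryos and 651, 784 and 775 in ROSI 2-cell embryos. Ncl, encoding nucleolin, was at 443 to 614 TPM in ICSI zygotes and 244 to 283 TPM in ICSI 2-cell embryos. Both fell, by 1.01 (SE 0.12) and 1.02 (SE 0.13) after ICSI and by 0.76 and 0.65 after ROSI. With quantile normalization their ROSI differences changed sign, to 0.06 and 0.07, and did not pass, nor did Npm1 after ICSI (-0.17). Ncl did not pass after ROSI with protein-coding genes rescaled (-0.17). How reads shared with processed copies of these genes were counted is not given in the sources used here. Nolc1, a snoRNP chaperone, and Tcof1, which links RNA polymerase I to its templates, rose after both by 0.59 to 0.77. Of the cofactors of ribosomal RNA synthesis, Mybbp1a rose from 9.37 to 11.2 TPM in zygotes to 103 to 138 TPM in 2-cell embryos (3.47, SE 0.12, and 3.62, SE 0.13), and the helicase Ddx21 rose by 0.86 (SE 0.11) and 1.41 (SE 0.13).

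At the 2-cell stage, 7 of 50 members (14.0%) were higher after ROSI than after ICSI and none was lower, against 4.93% and 4.58% of all tested genes (9.51% in either direction). The median member differed by 0.15 and the median gene by 0.04. Without ICSI 2-cell replicate 1 the median member differed by 0.04. The 7 were Gnl2, Polr1b, Emg1, Wdr75, Ddx21, Bop1 and Noc2l. In 15 members every ROSI 2-cell library lay above every ICSI 2-cell library, and in 1, Noc3l, every one lay below, against 15.4% and 11.8% of all tested genes. Noc3l was at 80.1 to 90.2 TPM after ROSI and 96.2 to 107 TPM after ICSI, and its difference of -0.28 (SE 0.08) did not pass (limma adjusted p = 0.0622).

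Gnl2 (chr4:125016585-125055380, plus strand, mm10) was at 48.7, 50.3 and 51.5 TPM in ROSI 2-cell embryos and at 24.7, 28.3 and 31.6 TPM in ICSI 2-cell embryos. The groups were well apart, and the difference was 0.81 (SE 0.12, limma adjusted p = 0.00551). Polr1b (chr2:129100995-129126594, plus strand) was at 30.6, 33.4 and 27.5 TPM after ROSI and 18.9, 18.1 and 18.4 TPM after ICSI, where the 3 libraries lay within 1 TPM of each other (0.69, SE 0.14, adjusted p = 0.0164). Ddx21 (chr10:62580251-62602281, minus strand) was at 143, 148 and 143 TPM after ROSI and 84.4, 115 and 113 TPM after ICSI (0.48, SE 0.11, adjusted p = 0.0261). The low ICSI value was that of replicate 1, the shallowest library, which was the lowest of its group for 48 of 50 members and for 56.4% of all tested genes. Emg1, a methyltransferase of small subunit RNA, was at 23.3, 22.7 and 20.1 TPM after ROSI and 11.8, 15.8 and 17.1 TPM after ICSI (0.55, SE 0.14, adjusted p = 0.0403). Wdr75, a processome subunit needed for transcription of the precursor, was at 42.6, 44.4 and 38.5 TPM and 22.0, 33.5 and 32.4 TPM (0.52, SE 0.14, adjusted p = 0.0495). Bop1 and Noc2l differed by 0.40 (SE 0.11) and 0.29 (SE 0.08), with adjusted p of 0.0439 and 0.0485. These 7 genes belong to 4 of the 7 roles, and no snoRNP protein or nucleolar organizer was among them. The box C/D, box H/ACA and organizer roles hold only 3, 4 and 4 members, and 4.93% of all tested genes were higher. Their absence is therefore not read as a pattern by role.

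**Figure D5:**
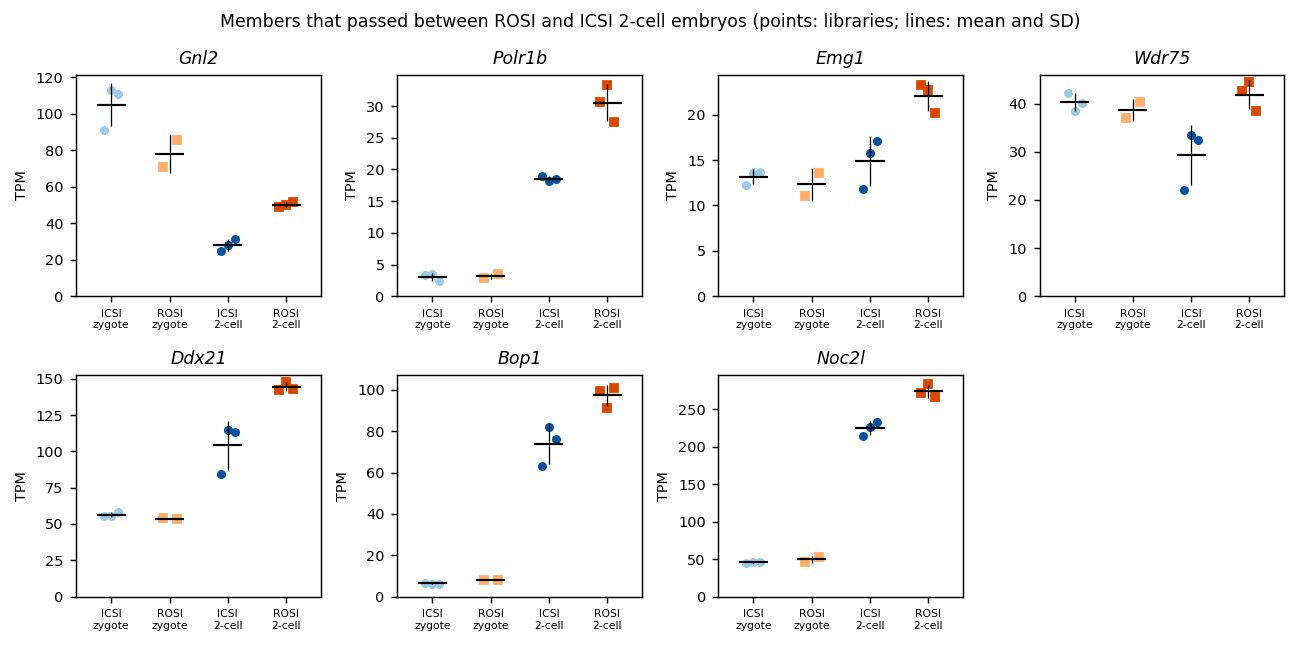
TPM by group of the 7 members with an adjusted p under 0.05 between ROSI and ICSI 2-cell embryos, with 1 point per library and a bar for mean and SD (n = 3, and n = 2 for ROSI zygotes). In each panel the 3 ROSI 2-cell points lie above the 3 ICSI 2-cell points, for Gnl2 at 48.7 to 51.5 against 24.7 to 31.6 TPM.

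Most of these 7 calls were close to the threshold. Over 24 other settings Gnl2 passed in 23, Polr1b in 21, Ddx21 in 19, Emg1 in 10, Noc2l in 7, Bop1 in 6 and Wdr75 in 5, always with ROSI higher. The number of the 50 members called is given here with the share of all tested genes called in brackets. It was 1 without ROSI 2-cell replicate 2 (4.18%) and 3 without ICSI 2-cell replicate 1 (4.90%) or replicate 2 (4.83%). It was 4 without ROSI 2-cell replicate 1 (7.07%) or replicate 3 (9.83%) or ICSI 2-cell replicate 3 (7.91%). It was 3 without any 1 of the ICSI zygotes (6.17% to 8.10%), and 5 without either ROSI zygote (7.77% and 7.79%). Gnl2 was the member that passed under all 11 omissions. Polr1b did not pass without ROSI 2-cell replicate 2 (limma adjusted p = 0.0601) or ICSI 2-cell replicate 2 (0.0504), and Ddx21 did not pass without ROSI 2-cell replicate 1 (0.0526) or replicate 2 (0.0803). With the 6 2-cell libraries fitted alone no member passed, where 0.387% of all tested genes did, and the limma adjusted p of Gnl2 was 0.0512. Other features of the ROSI libraries moved alongside. Of 10 tested spermatid markers, 6 were higher after ROSI at the 2-cell stage, where the 12 markers summed to 40.0 to 58.6 TPM against 10.7 to 15.5 TPM after ICSI. Tnp1, Tnp2, Odf1, Smcp, Crisp2 and Cetn1 lay under 1 TPM in every ICSI library. They were tested only through the ROSI libraries, so their differences are given as a description. All 7 markers of the 2-cell expression program lay lower after ROSI without overlap and 5 passed, with sums of 318.6 to 438.3 against 635.3 to 678.7 TPM. Of 10 oocyte and embryo markers 5 were lower. The part of these differences in the members' values was not tested.

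In zygotes no member differed between ROSI and ICSI by limma, where 0.114% of all tested genes were higher and 0.0319% lower (0.146% in all). The unadjusted limma p was under 0.05 for 5 of 50 members and for 1392 of 21938 tested genes. The median member lay at -0.11 and the median gene at -0.06. Under median-ratio scaling, quantile normalization, omission of the most abundant row and protein-coding rescaling, the median member lay at -0.03, -0.003, -0.03 and -0.02. In the same order, 12, 15, 12 and 12 members changed sign. The most abundant row held 13.3% to 14.9% of TPM in ROSI zygotes and 8.31% to 10.6% in ICSI zygotes. The smallest p-values were those of Gnl2, Polr1a and Bop1. Gnl2 was at 70.7 and 85.5 TPM in ROSI zygotes and 91.4, 113 and 111 TPM in ICSI zygotes (-0.42, SE 0.14, adjusted p = 0.426). Polr1a differed by -0.35 (SE 0.14) and Bop1 by 0.30 (SE 0.12). Their groups did not overlap, but with 2 libraries against 3 this was so for 17 members, 2 higher and 15 lower, against 6.97% and 19.4% of all tested genes. In these zygotes 10 spermatid markers of 10 tested lay higher after ROSI without overlap and 6 passed, and the sum of 12 was 91.9 to 179.9 TPM against 24.8 to 31.1 TPM. Tnp1, Tnp2, Odf1, Smcp, Crisp2 and Cetn1 lay under 1 TPM in every ICSI library. They met the limit on low values only through the ROSI libraries, so their differences are given as a description. Spaca1, which was not tested, overlapped between the groups.

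The stage changes after ROSI and after ICSI were compared directly by their difference. No member passed, where 0.0182% of all tested genes did (0.0137% with the more positive change after ROSI and 0.00456% after ICSI). The unadjusted limma p was under 0.05 for 13 of 50 members and for 3303 of 21938 tested genes. In 47 of 50 members the ROSI change was the more positive, with a median of 0.21 against 0.10 for all genes, and 0.13 for members without ICSI 2-cell replicate 1. Median-ratio scaling moved the members' median by -0.19, to 0.03, and 20 members changed sign. With quantile normalization, without the most abundant row and with protein-coding genes rescaled, 3, 2 and 2 changed sign and the medians were 0.22, 0.16 and 0.16. Gnl2 had the smallest p, with a difference of 1.24 (SE 0.18, limma adjusted p = 0.0640). It started lower and ended higher after ROSI, with group means of 78.1 and 50.1 TPM against 105 and 28.2 TPM after ICSI. Ddx21 (0.55, SE 0.17) and Utp20 (0.48, SE 0.15) followed, with adjusted p of 0.172 and 0.186. The members that passed after 1 fertilisation alone are therefore not shown to differ between the fertilisations.

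Among 122 further tested genes of the pathway, from a list grouped by role, 75 rose and 33 fell after ICSI (61.5% and 27.0%, against 33.0% and 35.0% of all tested genes), and 80 rose and 26 fell after ROSI (65.6% and 21.3%, against 35.6% and 32.3%). Of the 122, 4 (Utp23, Myc, Taf1c and Tsr2) met the limit on low values only through the 2-cell libraries, so their stage changes are given as a description. These 4 are included in the counts, so the shares that rose are a description too. The RNA polymerase I machinery beyond the members showed the highest share of the roles, with 13 of 17 higher after either fertilisation. Taf1c is among the 17, so this share is also a description. Ubtf, the factor that keeps ribosomal DNA open, was at 4.50 to 4.90 TPM in zygotes, 87.5, 102 and 113 TPM in ICSI 2-cell embryos and 139.7, 151 and 146 TPM in ROSI 2-cell embryos. Zfp622, which acts late in large subunit maturation, was at 0.384 to 1.55 TPM in zygotes and 142.5 to 156 TPM in 2-cell embryos. Bms1 and Riok1, a GTPase and a kinase of small subunit assembly, fell by 3.52 and 3.80 after ICSI, more than any member, with no zygote library under 955 TPM and no 2-cell library over 117 TPM. Between ROSI and ICSI at the 2-cell stage 16 were higher and 1, Nkrf, was lower (13.1% and 0.820%, against 4.93% and 4.58% of all tested genes). Among them were Taf1c, a subunit of the RNA polymerase I selectivity factor (0.96, SE 0.17), and Naf1, an assembly factor of box H/ACA particles (0.85, SE 0.19). In zygotes none passed.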

How the data were processed

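The deposited table gives TPM per gene for 11 RNA-seq libraries, made by the authors with tools that the submitters' processing notes name as STAR 2.7.4a, featureCounts, Bowtie2 and fastp, on the build mm10. Their roles and settings, the annotation, the strand option and any filter are not given in the sources used here. Libraries were made by a stranded SMART-seq kit, per the labels' protocols. Reads were recovered by multiplying TPM by GENCODE M21 exon length, which gave whole numbers (to 0.01) for 86.2% to 89.4% of the values in a library, with 2.00% from chance alone. A gene of 2 kb with 3 reads has 0.0512 to 0.396 TPM, depending on the library. Coordinates come from that annotation, and promoters from RefSeq.

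Genes that reached 1 TPM in 2 or more libraries were fitted together (limma 3.58.1 in R 4.3.3, lmFit and eBayes with a trend) on log2(TPM + 1) with 4 group means, with p-values adjusted by Benjamini-Hochberg over 21938 genes. Figures used python 3.11.15 and matplotlib 3.10.9. The fit was tested on simulated data. Members and lists were chosen with earlier results of these data known. Members were named in the text for an adjusted p under 0.05 between ROSI and ICSI, for the largest stage changes in each direction, for the 3 smallest p-values in a comparison without calls, for the highest and lowest levels, and as partners in a complex. Same-numbered replicates are not said to belong together, and their deviations did not all correlate above 0.1, so the main fit had no replicate block. Of 12 listed symbols without a row, 6 had a row under an older symbol; 5 of those older symbols are in the list themselves and were counted, and Cirh1a, for Utp4, was not.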

Additional observations from a re-analysis of the deposited data

How the results depend on the processing

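The stage changes held best. Of 44 members called after ICSI, 37 kept direction and threshold under all 24 other settings, and 42 did so under every omission of 1 library, and of 43 after ROSI, 35 and 40 did. The counts called ranged from 42 to 44 and from 41 to 43 over those omissions. The shares of all tested genes called ranged from 62.9% to 69.0% after ICSI and from 60.0% to 69.3% after ROSI. Under quantile normalization Ncl and Npm1 after ROSI reversed to 0.0709 and 0.0648, and under rescaling to protein-coding genes Wdr75 after ICSI reversed to 0.0524, as did Imp4 (0.22), Ltv1 (0.02) and Gnl3 (0.26); Ltv1 (0.09) and Gnl3 (0.30) also reversed after ICSI under quantile normalization, and the cause was not tested. Quantile normalization moved the median of all genes after ROSI from 0.19 to -0.03.

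The 7 members called between ROSI and ICSI 2-cell embryos became 3 with a pseudocount of 0.1 (6.98% of all genes tested, against 9.51% in the reported fit), 3 without the filter on low values (3.29%), 4 (3 higher and 1 lower) with median-ratio scaling (15.5%), 16 (15 higher and 1 lower) with quantile normalization (14.9%), 10 without the most abundant row (11.7%), 2 without a variance trend (7.85%), 3 with array weights (8.29%) and 0 with the 2 groups fitted alone (0.387%), which leaves fewer libraries to estimate the spread. Omitting 1 library gave 1 to 5 (4.18% to 9.83% of all genes). Alternatives added after seeing the data gave 16 (15 higher and 1 lower) with protein-coding genes rescaled (23.3%) and 2 without ROSI zygote replicate 1 and ICSI zygote replicate 1 (6.37%). For the difference between stage changes, 1 member, Gnl2, passed with a pseudocount of 5 (0.428% of all genes tested) or a minimum of 5 TPM (0.550%). It also passed with array weights (1.00%), median-ratio scaling (1.38%), quantile normalization (0.898%) or protein-coding genes rescaled (4.10%). As reported, 0 members and 0.0182% of all genes passed. In zygotes no member passed under any setting.

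With the replicate number as a replicate block, 5 members were called between ROSI and ICSI 2-cell embryos, 45 after ICSI, 43 after ROSI and 0 in the other 2 comparisons. The 2-cell pairs of ROSI and ICSI libraries with the same number correlated at 0.02, -0.0026 and -0.01 in their deviations, and the zygote pairs at 0.33 and 0.22. The other same-numbered pairs, between stages, lay at -0.04 to 0.06, so not every pair was above 0.1. Fitting the groups alone was not run for the difference between stage changes, which needs all 4 groups. Depth limits Nop16 and the snoRNA genes in zygotes, which rest on few reads.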

Other observations

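In 2-cell embryos the members followed each other from library to library. ROSI 2-cell replicate 1 was the lowest of its group for 39 of 50 members, against 56.2% of all tested genes, and ICSI 2-cell replicate 1 for 48 of 50. In ICSI zygotes replicate 1 was the lowest for 30 of 50 members, against 31.9% of all tested genes. These are values of single libraries with no test, and the members of a library share its RNA and depth.

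Among the snoRNA genes inside members, Snord82, in Ncl, had the highest value in any single library. It was listed at 28.4 and 114 TPM in ROSI zygotes, 11.6, 253 and 288 TPM in ICSI zygotes, 41.1, 42.0 and 113 TPM in ROSI 2-cell embryos and 15.1, 29.8 and 72.1 TPM in ICSI 2-cell embryos. It passed in no comparison.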
